A study of Mus musculus with 10 samples.

Results

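The intercalated disc is the end-to-end contact between heart muscle cells, where gap junctions pass current, desmosomes tie intermediate filaments together and adherens junctions tie actin filaments together. In the heart the last of these mix with desmosomal proteins in a hybrid junction, and loss of gap junction or desmosome proteins at the disc is known from arrhythmia and from inherited arrhythmogenic cardiomyopathy. The junction genes described here are a given list of 10, taken from the table by symbol: the gap junction genes Gja1 and Gjc1, the desmosome genes Dsg2, Dsc2, Dsp, Pkp2 and Jup, the adherens junction genes Cdh2 and Ctnna3, and the scaffold gene Tjp1. All 10 were among the 49585 rows of the deposited table and all 10 were among the 12906 genes with enough counts to test.

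RNA came from the left ventricle of male mice of the ICR strain, an outbred stock, after atria, valves and right ventricle had been cut away. Hearts were taken 4 weeks after infarction was induced. The labels add a time of 8 weeks to all samples and do not say from when it runs. The 5 libraries of the 4FM3 group came from infarcted mice given 4FM3, and the 5 of the PBS group from infarcted mice given phosphate-buffered saline, the control. The series title places the study in direct reprogramming, the conversion of heart cells in place by genes carried on adeno-associated virus, but what 4FM3 contains is not given in the sources used here. Neither uninjured hearts nor an empty vector stand among the groups, so an effect of a vector and an effect of its cargo cannot be told apart. Whether every library stands for its own mouse is not said, and p-values speak only of the variation among these libraries.

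Library totals lay between 6634159 and 7711177 counts, and each junction gene had at least 148 counts in every library. Levels are given as CPM, the count divided by the library size in units of 1e+06 reads, after the scaling of library sizes known as TMM. Tissue identity and composition were read from marker lists. Summed cardiomyocyte markers, 13 genes, ranged from 120800 to 147000 CPM in 4FM3 and from 78660 to 106500 CPM in PBS, with 12 of the 13 higher by the test. Summed fibroblast markers, 12 genes, ranged from 4134 to 7139 CPM in 4FM3 and from 10210 to 12590 CPM in PBS, with all 12 lower. The 4FM3 libraries were not alike in this. Replicates 2 and 5 had 6761 and 7139 CPM, and replicates 1, 3 and 4 had 4188, 4134 and 4751 CPM. Endothelial markers summed to between 1697 and 1748 CPM in 4FM3 and between 1388 and 1645 CPM in PBS, with 6 of 10 higher and none lower. Atrial markers, 5 genes, summed to between 661 and 2524 CPM in 4FM3 and between 3048 and 4007 CPM in PBS, without overlap, with 1 of 4 tested lower and none higher. Within 4FM3, replicates 5 and 2 again had the highest sums, at 2524 and 1499 CPM. A sum follows its most abundant genes, and the median log2 fold change of the 4 tested was 0.12. The lower sum is therefore not a trait of the list as a whole. Macrophage markers, 8 genes, summed to between 721 and 865 CPM in 4FM3 and between 793 and 1709 CPM in PBS, with 6 of 8 lower and none higher. Mesothelial and epithelial markers, of cell types that also build desmosomes, summed to between 18.1 and 76.3 CPM in 4FM3 and between 60.7 and 153 CPM in PBS, with 1 of 7 tested lower. Lung epithelial markers reached 1204 and 1150 CPM in PBS replicates 2 and 3, and at most 26.3 CPM in the other 8 libraries. The 26.3 CPM was that of 4FM3 replicate 2, where 1 of the 10 markers had 0 counts. The remaining libraries reached at most 5.15 CPM. In bulk tissue, more cells of a type and more RNA per cell cannot be told apart, and the part of this shift in composition in the results below was not tested.

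Most junction genes were higher in 4FM3, and the connexin gene Gjc1 was lower. Of the 10 genes, 7 rose, 1 fell and 2 did not pass edgeR's quasi-likelihood test at an adjusted p of 0.05. Gja1, Dsg2, Dsc2, Dsp, Pkp2, Cdh2 and Ctnna3 rose, between 1.24-fold and 1.62-fold, Gjc1 fell 1.38-fold, and Jup and Tjp1 did not pass. Among all tested genes, 20.9% were called higher and 22.1% lower, so a call by itself sets no gene apart in this comparison. The same shares apply to the counts of every gene list, the marker lists above included. The library values of both groups lay apart for 5 of the 10, with 4FM3 higher in 4 and lower in 1, against 14.1% and 13.4% of all tested genes. The median log2 fold change was 0.34 over the 10 genes and -0.03 over all tested genes, and 9 of the 10 lay above the median of all genes. With library size alone as scaling, the median of all genes stood at -0.21, 23.7% of calls were higher in 4FM3, against 48.7% with TMM, and 6 junction genes rose and 1 fell. Without PBS replicates 2 and 3, 5 rose and 1 fell.

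**Figure D1:**
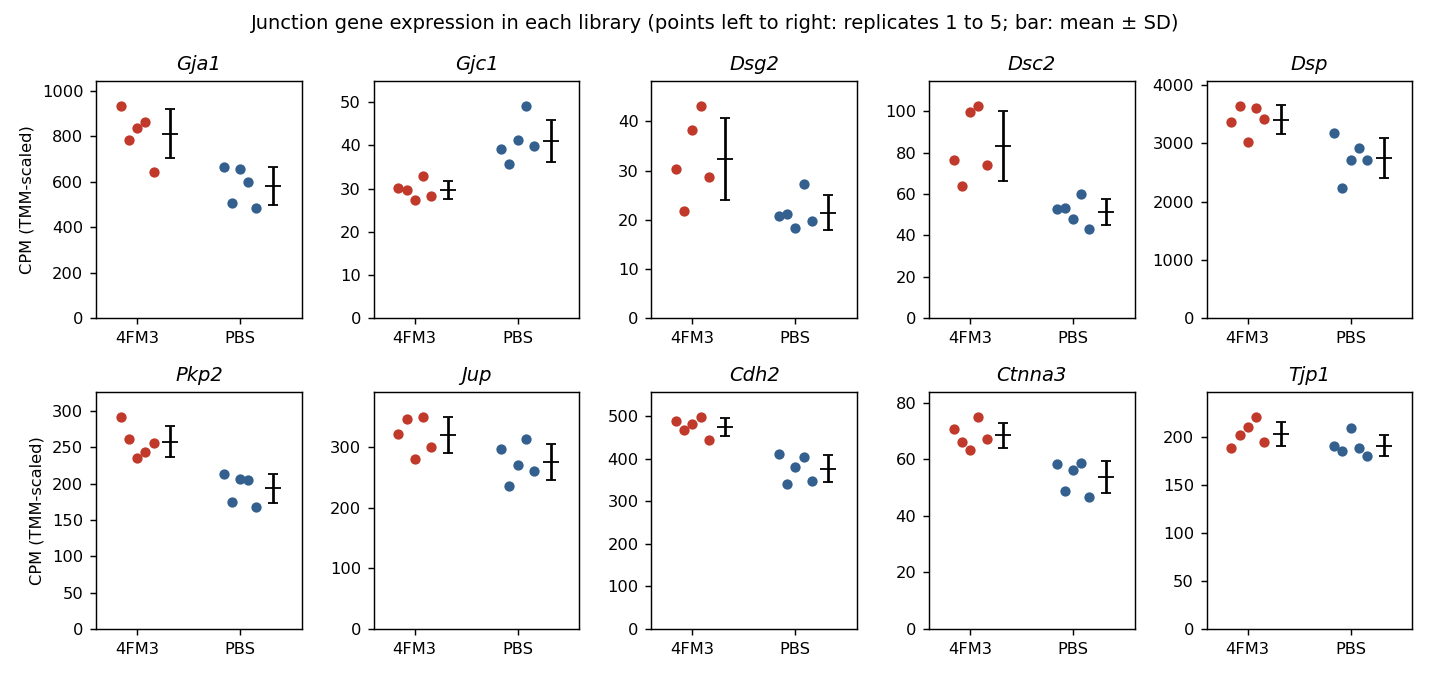
CPM of each of the 10 junction genes in each library, on axes that start at 0, with 4FM3 libraries in red, PBS libraries in blue and the mean ± SD (n = 5 each) as a black bar. All 5 Gjc1 points of 4FM3 lie below those of PBS, all 5 points of Dsc2, Pkp2, Cdh2 and Ctnna3 lie above, and the other 5 genes overlap.

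Gap junctions are channels between neighbouring cells built from connexins. Gja1 encodes connexin 43, the main connexin of working ventricular muscle, which is also made by fibroblasts and other cell types (chromosome 10, 56377330 to 56402513, plus strand). Gja1 had 932, 785, 835, 865 and 642 CPM in 4FM3 replicates 1 to 5, against 664, 508, 656, 597 and 485 CPM in PBS replicates 1 to 5. Only 4FM3 replicate 5 reached down into the PBS range. The mean was 812 ± 109 CPM in 4FM3 and 582 ± 82.6 CPM in PBS (SD, n = 5 each), a log2 fold change of 0.48 (SE 0.118, adjusted p = 0.00624 by edgeR). The direction and call held in all 19 alternatives, with values from 0.31 to 0.61.

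Gjc1 encodes connexin 45, known from the early heart, the conduction system and smooth muscle, with low levels in working ventricle (chromosome 11, 102799579 to 102819700, minus strand). Gjc1 had 30.2, 29.7, 27.4, 32.8 and 28.2 CPM in 4FM3 replicates 1 to 5, against 39.1, 35.7, 41.2, 49.0 and 39.9 CPM in PBS replicates 1 to 5. The highest 4FM3 library lay below the lowest PBS library, and the 4FM3 values were close together. The mean was 29.7 ± 2.11 CPM in 4FM3 and 41.0 ± 4.92 CPM in PBS (SD, n = 5 each), a log2 fold change of -0.47 (SE 0.0896, adjusted p = 0.00153 by edgeR). It was called lower in all 19 alternatives, between -0.64 and -0.38. Summed markers of mural cells, which also carry connexin 45, were not lower in 4FM3, at 1697 to 1888 CPM in 4FM3 and 1385 to 1733 CPM in PBS, although 5 of these 8 markers fell and 3 rose. Summed markers of the conduction system, 6 genes, stood at 54.1 to 78.6 CPM in 4FM3 and 45.9 to 58.2 CPM in PBS, with overlap, and 2 of the 4 tested were higher and none lower. By list median the mural markers stood at a log2 fold change of -0.44. Of the lists given above, fibroblast and macrophage markers had medians of -0.77 and -0.65, and cardiomyocyte and endothelial markers 0.85 and 0.22. The part of any of these cell types in the Gjc1 result was not tested.

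The ratio of both connexin transcripts within a library needs no scaling between libraries. It combines the Gja1 and Gjc1 changes given above and is not a result apart from them. The part of cell composition in this ratio was not tested. Gjc1 counts were 3.70% ± 0.467 of Gja1 counts in 4FM3 and 7.13% ± 1.08 in PBS (SD, n = 5 each). The 4FM3 libraries ran from 3.24% to 4.39% and the PBS libraries from 5.88% to 8.24%, without overlap. The log2 ratio was lower by -0.94 (SE 0.127, 1.92-fold) in 4FM3, with a two-sided exact permutation p of 0.00794, the smallest that 5 against 5 libraries allow, and 0.0317 after Benjamini-Hochberg adjustment over the 4 ratios tested.

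Few other connexins and pannexins had enough counts. Of 21 further genes of these families, 5 were tested, of which 2 fell, none rose and 3 did not pass, with a median log2 fold change of -0.13. Shares among all tested genes were 22.1% lower and 20.9% higher. Panx1, a large-pore membrane channel, averaged 7.95 ± 2.18 CPM in 4FM3 and 13.4 ± 2.04 CPM in PBS (SD, n = 5 each; log2 fold change -0.75, adjusted p = 0.00502 by edgeR). Gja4, connexin 37 of arterial endothelium, averaged 14.4 ± 3.78 CPM in 4FM3 and 21.9 ± 5.21 CPM in PBS (log2 fold change -0.60, adjusted p = 0.0278 by edgeR), and did not pass without PBS replicates 2 and 3 (-0.65, adjusted p = 0.0586 by edgeR). Gja3, connexin 46, averaged 8.86 ± 3.42 CPM in 4FM3 and 6.02 ± 1.40 CPM in PBS and did not pass (log2 fold change 0.55, adjusted p = 0.106 by edgeR). A list of 10 genes that modify, deliver or degrade connexin 43 had 4 lower, none higher and a median of -0.08, against 22.1% lower and 20.9% higher among all tested genes. In it, Src, a tyrosine kinase that phosphorylates connexin 43, averaged 12.7 ± 0.869 CPM in 4FM3 and 22.3 ± 2.62 CPM in PBS (1.76-fold lower, adjusted p = 0.000271 by edgeR). Bin1, a membrane-bending protein that helps deliver connexin 43 and calcium channels, was 1.40-fold lower (adjusted p = 0.00421), and Mapre1, the microtubule tip protein EB1, 1.18-fold lower (adjusted p = 0.0108).

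Desmosomes join cells through the cadherins desmoglein and desmocollin, whose tails bind plakoglobin and plakophilin, which in turn bind desmoplakin and the filaments behind it. The cadherin genes had the highest fitted fold changes of the 10. Dsc2, desmocollin 2, had 76.7, 64.0, 99.5, 102 and 74.0 CPM in 4FM3 replicates 1 to 5, against 52.9, 53.4, 48.0, 59.9 and 42.9 CPM in PBS replicates 1 to 5. Dsg2, desmoglein 2, the main heart desmoglein, had 30.2, 21.8, 38.3, 43.02 and 28.8 CPM in 4FM3 replicates 1 to 5, against 20.7, 21.3, 18.3, 27.4 and 19.7 CPM in PBS replicates 1 to 5. In both genes 4FM3 replicates 3 and 4 were the highest libraries, 4FM3 replicate 2 was the lowest of its group and PBS replicate 4 the highest of its group. The groups lay apart for Dsc2 and overlapped for Dsg2, where 4FM3 replicate 2 fell inside the PBS range.

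Dsc2 averaged 83.3 ± 16.8 CPM in 4FM3 and 51.4 ± 6.36 CPM in PBS (SD, n = 5 each), a log2 fold change of 0.69 (SE 0.134, adjusted p = 0.00179 by edgeR). Dsg2 averaged 32.4 ± 8.35 CPM in 4FM3 and 21.5 ± 3.47 CPM in PBS, a log2 fold change of 0.59 (SE 0.172, adjusted p = 0.0161 by edgeR). Dsg2 did not pass without PBS replicates 2 and 3 (0.53, adjusted p = 0.0899). Within libraries, Dsc2 counts were 261% ± 20.6 of Dsg2 counts in 4FM3 and 241% ± 21.2 in PBS (SD, n = 5 each). That log2 ratio differed by 0.11 (SE 0.076, two-sided exact permutation p = 0.19, adjusted 0.254), which was not past the threshold. An antisense gene shares 330 exon bases with Dsg2 in GENCODE M21, and it had at most 1 count in any library.

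The plaque genes Dsp, Pkp2 and Jup had fitted log2 fold changes of 0.31, 0.42 and 0.21. Dsp, desmoplakin, which links the plaque to desmin filaments (chromosome 13, 38151294 to 38198577, plus strand), had 3366, 3634, 3019, 3612 and 3415 CPM in 4FM3 replicates 1 to 5, against 3174, 2239, 2722, 2914 and 2717 CPM in PBS replicates 1 to 5. PBS replicate 1 lay above 4FM3 replicate 3, and PBS replicate 2 was lowest. Dsp averaged 3409 ± 248 CPM in 4FM3 and 2753 ± 343 CPM in PBS (SD, n = 5 each), a log2 fold change of 0.31 (SE 0.104, adjusted p = 0.0305 by edgeR). This call was the least stable of the 8. It was lost without any 1 of PBS replicates 2, 3 or 5 or 4FM3 replicates 1, 2 or 4 (0.25 to 0.32, adjusted p between 0.0521 and 0.0712). It was also lost with library size alone (0.14), and without PBS replicates 2 and 3 it stood at 0.23 (adjusted p = 0.172).

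Pkp2, plakophilin 2, the gene most often mutated in human arrhythmogenic cardiomyopathy (chromosome 16, 16213318 to 16272712, plus strand), had 291, 262, 236, 244 and 256 CPM in 4FM3 replicates 1 to 5, against 213, 175, 206, 205 and 168 CPM in PBS replicates 1 to 5. Every 4FM3 library exceeded every PBS library. Pkp2 averaged 258 ± 21.4 CPM in 4FM3 and 193 ± 20.3 CPM in PBS (SD, n = 5 each), a log2 fold change of 0.42 (SE 0.0847, adjusted p = 0.00214 by edgeR), called in all 19 alternatives. Jup, plakoglobin, a catenin shared by desmosomes and adherens junctions (chromosome 11, 100368958 to 100397763, minus strand), had 321, 346, 281, 349 and 300.2 CPM in 4FM3 replicates 1 to 5, against 296, 237, 270, 313 and 261 CPM in PBS replicates 1 to 5. The groups overlapped, with 4FM3 replicates 3 and 5 inside the PBS range. Jup averaged 319 ± 29.5 CPM in 4FM3 and 275 ± 30.04 CPM in PBS (SD, n = 5 each). It stood at a log2 fold change of 0.21 (SE 0.0896, adjusted p = 0.0701 by edgeR) and passed in 4 of 19 alternatives, among them without PBS replicate 4 (0.27), without 4FM3 replicate 3 (0.26) and with the DESeq2 Wald test (0.23).

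The plaque genes were also set against each other within libraries. Pkp2 counts were 7.58% ± 0.719 of Dsp counts in 4FM3 and 7.06% ± 0.657 in PBS, a log2 difference of 0.10 (SE 0.0856, two-sided exact permutation p = 0.27, adjusted 0.27, n = 5 each). Jup counts were 9.36% ± 0.346 of Dsp counts in 4FM3 and 10.03% ± 0.605 in PBS, a log2 difference of -0.10 (SE 0.0458, two-sided exact permutation p = 0.0714, adjusted 0.143, n = 5 each). Neither passed, and the second passed without PBS replicate 1 (-0.12, adjusted p = 0.0317).

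**Figure D2:**
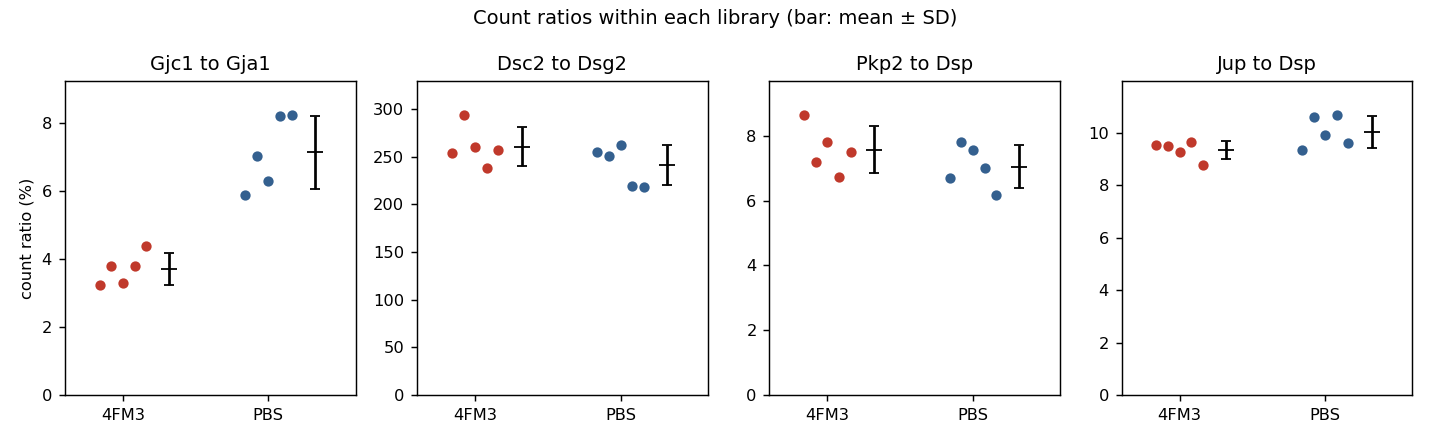
Count ratio in percent within each library for the 4 ratios tested, with 4FM3 libraries in red, PBS libraries in blue and the mean ± SD (n = 5 each) in black. The ratio of Gjc1 to Gja1 lies between 3.24% and 4.39% in 4FM3 and between 5.88% and 8.24% in PBS, and the other 3 ratios overlap between the groups.

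The remaining desmosome list held mostly genes of stratified epithelia. Of 14 further genes, 5 were tested, of which 2 fell, none rose and 3 did not pass. Shares among all tested genes were 22.1% lower and 20.9% higher. The median log2 fold change of the 5 was -0.15. The genes that fell were plakin genes of epithelial desmosomes. Ppl, periplakin, averaged 9.54 ± 1.79 CPM in 4FM3 and 16.4 ± 2.28 CPM in PBS (SD, n = 5 each; 1.72-fold lower, adjusted p = 0.00105 by edgeR), and Evpl, envoplakin, 1.09 ± 0.601 CPM in 4FM3 and 2.24 ± 0.829 CPM in PBS (2.01-fold lower, adjusted p = 0.0431 by edgeR). Evpl had few counts, with its lowest 4FM3 library at 0.617 CPM, where 3 counts make 0.424 to 0.481 CPM. Without PBS replicates 2 and 3, which had the highest lung marker sums, Ppl was 1.67-fold lower (adjusted p = 0.0118 by edgeR). Evpl did not pass without these libraries (2.33-fold lower, adjusted p = 0.0551 by edgeR). Epithelial and mesothelial markers were lower in the same direction in sum, with overlap, as given above, and their part in these changes was not tested. Pkp4, a plakophilin of cell contacts in many tissues, averaged 138 ± 13.7 CPM in 4FM3 and 120 ± 12.3 CPM in PBS and did not pass (log2 fold change 0.20, adjusted p = 0.0754 by edgeR).

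Adherens junctions of the disc are built on N-cadherin, whose tail binds catenins that hold actin. Cdh2, N-cadherin, had 489, 467, 481, 498 and 443 CPM in 4FM3 replicates 1 to 5, against 411, 341, 382, 405 and 347 CPM in PBS replicates 1 to 5. Ctnna3, alpha-T-catenin, the alpha-catenin that also binds plakophilin 2, had 70.7, 66.3, 63.3, 74.9 and 67.1 CPM in 4FM3 replicates 1 to 5, against 58.5, 48.8, 56.2, 58.8 and 46.8 CPM in PBS replicates 1 to 5. For both genes the lowest 4FM3 library lay above the highest PBS library. Cdh2 averaged 476 ± 21.4 CPM in 4FM3 and 377 ± 32.4 CPM in PBS (SD, n = 5 each), a log2 fold change of 0.34 (SE 0.0738, adjusted p = 0.00339 by edgeR). Ctnna3 averaged 68.5 ± 4.49 CPM in 4FM3 and 53.8 ± 5.62 CPM in PBS, a log2 fold change of 0.35 (SE 0.0793, adjusted p = 0.00418 by edgeR). Both were called in all 19 alternatives, and Ctnna3 at its weakest had an adjusted p of 0.0489. Ctnna3 spans 1573.6 kb of chromosome 10 (63430098 to 65003667, plus strand), and the genes annotated within it had at most 1 count.

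Of 16 other adherens junction genes, 15 were tested, of which 3 rose, 2 fell and 10 did not pass, with a median log2 fold change of -0.03. Shares among all tested genes were 20.9% higher and 22.1% lower. Lmo7, an afadin-binding protein of adherens junctions, averaged 567 ± 50.7 CPM in 4FM3 and 381 ± 58.5 CPM in PBS (SD, n = 5 each; 1.49-fold higher, adjusted p = 0.00125 by edgeR). Ctnna1, the ubiquitous alpha-E-catenin, averaged 613 ± 36.3 CPM in 4FM3 and 523 ± 17.99 CPM in PBS (1.17-fold higher, adjusted p = 0.015 by edgeR), and did not pass without PBS replicates 2 and 3 (adjusted p = 0.0968 by edgeR). Tln1, talin 1, which couples integrins to actin and is not limited to the disc, averaged 491 ± 74.2 CPM in 4FM3 and 650 ± 45.2 CPM in PBS (1.32-fold lower, adjusted p = 0.00734 by edgeR). Among other cadherins, 9 of 21 were tested, with 2 higher, 1 lower and a median of 0.21, against the same shares of all genes. Cdh5, VE-cadherin of endothelium, was 1.16-fold higher (adjusted p = 0.0404 by edgeR), at 236 ± 16.3 CPM in 4FM3 and 204 ± 18.7 CPM in PBS, and did not pass without PBS replicates 2 and 3 (adjusted p = 0.118 by edgeR). Cdh22 was 1.92-fold higher (adjusted p = 0.00856 by edgeR), at 7.03 ± 2.405 CPM in 4FM3 and 3.63 ± 0.414 CPM in PBS, with overlap. Its call held without PBS replicates 2 and 3 (adjusted p = 0.0428 by edgeR). Cdh19, a cadherin of nerve-associated glia, was 1.80-fold lower (adjusted p = 0.00101 by edgeR), at 4.49 ± 0.626 CPM in 4FM3 and 8.08 ± 1.11 CPM in PBS.

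Tjp1 encodes ZO-1, the scaffold that binds the tail of connexin 43 at the rim of gap junctions and tight junction proteins elsewhere, and it is expressed in many cell types (chromosome 7, 65296165 to 65527781, minus strand). Tjp1 had 189, 202, 210.0, 221 and 194 CPM in 4FM3 replicates 1 to 5, against 191, 185, 209, 189 and 181 CPM in PBS replicates 1 to 5. The groups overlapped over most of their range. Tjp1 averaged 203 ± 12.6 CPM in 4FM3 and 191 ± 10.9 CPM in PBS (SD, n = 5 each). The log2 fold change was 0.09 (SE 0.0646, 95% interval from -0.06 to 0.24, adjusted p = 0.274 by edgeR), and with library size alone it turned to -0.09. No alternative gave a call. Of 19 tight junction genes and partners of ZO-1, 13 were tested, with 2 higher, 4 lower and a median of 0.05. Shares among all tested genes were 20.9% higher and 22.1% lower. Cxadr, the coxsackievirus and adenovirus receptor, an adhesion protein of the disc that binds ZO-1, averaged 136 ± 9.95 CPM in 4FM3 and 88.5 ± 15.2 CPM in PBS (SD, n = 5 each; 1.53-fold higher, adjusted p = 0.000819 by edgeR), without overlap between the groups. Cldn1, an epithelial claudin, averaged 0.917 ± 0.629 CPM in 4FM3 and 4.08 ± 1.67 CPM in PBS (4.34-fold lower, adjusted p = 0.00233 by edgeR). Its lowest 4FM3 library had 0.160 CPM, below the 0.424 to 0.481 CPM that 3 counts make in 4FM3 libraries. The size of this fold is therefore uncertain. Without PBS replicates 2 and 3, which had the highest lung marker sums, Cldn1 was 4.06-fold lower (adjusted p = 0.018 by edgeR). Summed epithelial and mesothelial markers were also lower, with overlap, and their part in the Cldn1 result was not tested.

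Sequences around an annotated transcript start were available in the RefSeq table (build GRCm38.p6) for 5 of the 10 genes: Gja1, Dsp, Jup, Ctnna3 and Tjp1. They are shown for Gja1 and Dsp, which rose, and for Tjp1, which did not pass. Each run holds 250 bases before and 50 after the annotated start, 5′ to 3′ on the gene's strand, and capitals mark matches on either strand to any of 6 short motifs. Gja1 is at chr10:56377050-56377349 (plus strand), Dsp at chr13:38151044-38151343 (plus strand) and Tjp1 at chr7:65371195-65371494 (minus strand). The Gja1 and Dsp windows lie at the 5′ end of the gene in GENCODE M21, while the Tjp1 window belongs to a start 157 kb inside the gene's annotated span.
Gja1: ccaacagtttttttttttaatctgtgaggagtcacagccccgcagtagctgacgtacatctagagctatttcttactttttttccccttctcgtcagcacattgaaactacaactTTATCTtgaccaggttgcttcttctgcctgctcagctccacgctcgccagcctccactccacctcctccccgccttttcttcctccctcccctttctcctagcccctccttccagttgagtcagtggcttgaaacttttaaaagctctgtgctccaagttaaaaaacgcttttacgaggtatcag
Dsp: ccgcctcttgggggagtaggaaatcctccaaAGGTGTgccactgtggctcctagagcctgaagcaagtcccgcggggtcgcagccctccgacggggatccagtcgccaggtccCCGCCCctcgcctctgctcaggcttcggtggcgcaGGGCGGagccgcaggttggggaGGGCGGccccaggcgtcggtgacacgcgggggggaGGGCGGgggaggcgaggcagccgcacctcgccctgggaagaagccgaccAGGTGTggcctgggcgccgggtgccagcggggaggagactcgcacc
Tjp1: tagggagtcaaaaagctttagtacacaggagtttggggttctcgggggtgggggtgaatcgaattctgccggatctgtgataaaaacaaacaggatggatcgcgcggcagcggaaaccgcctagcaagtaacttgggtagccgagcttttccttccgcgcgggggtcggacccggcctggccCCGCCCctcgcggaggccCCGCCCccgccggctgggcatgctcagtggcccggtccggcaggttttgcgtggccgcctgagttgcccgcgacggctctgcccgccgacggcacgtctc

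The motifs, with the share of all 32851 promoters in the table that hold them, were the T-box motif AGGTGT (13.7%), the GATA motif AGATAA (11.2%), the TEAD motif CATTCC (14.7%), the SP motif GGGCGG (35.7%), CCAAT (37.4%) and TATAAA (13.6%). In Gja1 only the GATA motif matched, on the opposite strand at -135 to -130 from the start. Dsp held 4 SP matches and 2 T-box matches, and Tjp1 held 2 SP matches. The Jup and Ctnna3 windows are not shown. Jup, which did not pass, held 5 matches of the T-box, SP and CCAAT motifs, with the T-box match at -19 to -14. Ctnna3, which rose, held 2 SP matches in the window at its 5′ end and a T-box match in a window 391 kb inside the gene. T-box and SP matches were thus not confined to genes that rose. No matches overlapped. Base composition differed widely, with 47.7% G and C in the Gja1 window, 73.0% in that of Dsp and 65.3% in that of Tjp1. Matches are a description of these letters and not of binding.

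To compare genes with each other, levels were divided by the kilobases of merged exons in GENCODE M21, while the annotation behind the deposited counts is not given in the sources used here. Merged exons pool all annotated transcripts of a gene, 8 over 10.257 kb for Gja1 and 3 over 9.659 kb for Dsp. Which of them were expressed was not measured, so a level is understated where the expressed transcript is shorter. Dsp stood highest, with 353 ± 25.7 CPM per kb in 4FM3 and 285 ± 35.5 in PBS (SD, n = 5 each), followed by Gja1 with 79.1 ± 10.6 CPM per kb in 4FM3 and 56.7 ± 8.06 in PBS. Cdh2, Jup and Pkp2 came next, with means of 59.0, 49.6 and 48.1 CPM per kb in 4FM3 and 46.8, 42.8 and 36.1 CPM per kb in PBS. Tjp1 had 26.01 ± 1.61 CPM per kb in 4FM3 and 24.4 ± 1.39 in PBS. Dsc2, Ctnna3, Gjc1 and Dsg2 made up the low end, at 15.8, 9.47, 5.93 and 3.92 CPM per kb in 4FM3 and 9.75, 7.44, 8.19 and 2.60 CPM per kb in PBS. In 4FM3, only the neighbours Jup and Pkp2 overlapped in their library values. In PBS, Gja1 overlapped Cdh2, Cdh2 overlapped Jup, Jup overlapped Pkp2, Dsc2 overlapped Gjc1, and Gjc1 overlapped Ctnna3. Gjc1 thus stood above Ctnna3 in mean in PBS, within the spread, and below it in 4FM3, outside the spread. This change of order rests on the division by length. In CPM, Gjc1 averaged below Ctnna3 in both groups, at 29.7 against 68.5 in 4FM3 and 41.0 against 53.8 in PBS.

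**Figure D3:**
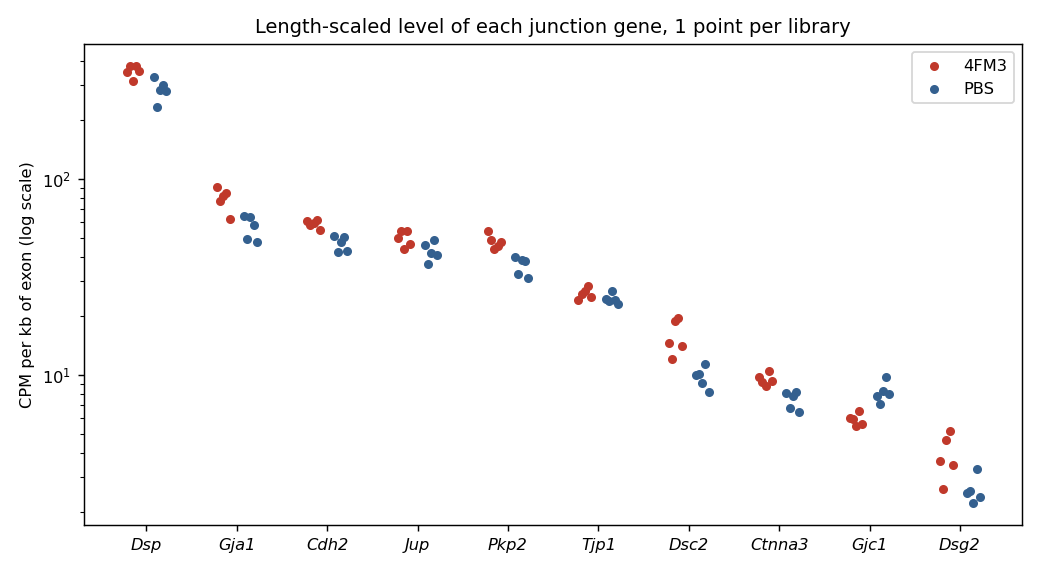
Level of each junction gene in CPM per kb of merged exon on a log axis, 1 point per library, with 4FM3 in red and PBS in blue, ordered by the 4FM3 mean. Dsp stands highest at 353 CPM per kb in 4FM3 and Dsg2 lowest at 3.92, and Gjc1 is the gene whose 4FM3 points lie below its PBS points.

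Since cardiomyocyte markers were higher in 4FM3, the junction genes were also read against cardiomyocyte RNA of the same library. For this, library sizes were replaced by the geometric mean of the 13 cardiomyocyte markers and the edgeR test was rerun on all 12906 genes. Under this scaling, which moved the median log2 fold change of all genes to -0.74, 8 of the 10 junction genes were called lower, none higher and 2 were not called, against 83.0% lower and 0.992% higher among all genes. The median of the 10 was -0.37. The scaling shifts all genes by nearly the same amount, so the order of the 10 genes is that under TMM and adds nothing to it. All 10 fitted values were below 0, the point around which the 13 marker genes are centred by construction, and they ran from -1.17 to -0.02. The markers were themselves spread, with 4 of the 13 called higher and 5 lower under this scaling. Under TMM they ran from 0.23 for Mybpc3 to 1.07 for Tnni3, with Actc1, Actn2 and Ttn at 0.34, 0.34 and 0.35. A value below 0 therefore does not set a junction gene apart from every cardiomyocyte marker.

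Within the list, Gjc1 stood lowest, at a log2 fold change of -1.17 (SE 0.111, adjusted p = 3.79e-05 by edgeR). It was followed by Tjp1 at -0.63 (SE 0.100, adjusted p = 0.000111) and Jup at -0.49 (SE 0.100, adjusted p = 0.000576). Dsp (-0.39), Cdh2 (-0.37) and Ctnna3 (-0.36) were also called lower, and these 6 calls held in all 16 alternatives. Pkp2 (-0.29, adjusted p = 0.0129) and Gja1 (-0.23, adjusted p = 0.0309) did not pass when 6 sarcomere genes set the scale (-0.14 and -0.08) or when the summed counts of the 13 genes did (-0.15 and -0.09). Without PBS replicates 2 and 3, Pkp2 stood at an adjusted p of 0.0785 and Gja1 at 0.151 by edgeR. The Gja1 call was lost in 10 of 16 alternatives, among them without any 1 of 4FM3 replicates 3, 4 or 5 or PBS replicates 1 or 3 (adjusted p between 0.0531 and 0.0942 by edgeR). Dsg2 (-0.13, adjusted p = 0.41) and Dsc2 (-0.02, adjusted p = 0.845) did not pass, with values that turned to 0.03 and 0.13 under the sarcomere scale. Over all genes the 6 sarcomere genes gave a median of -0.59.

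**Figure D4:**
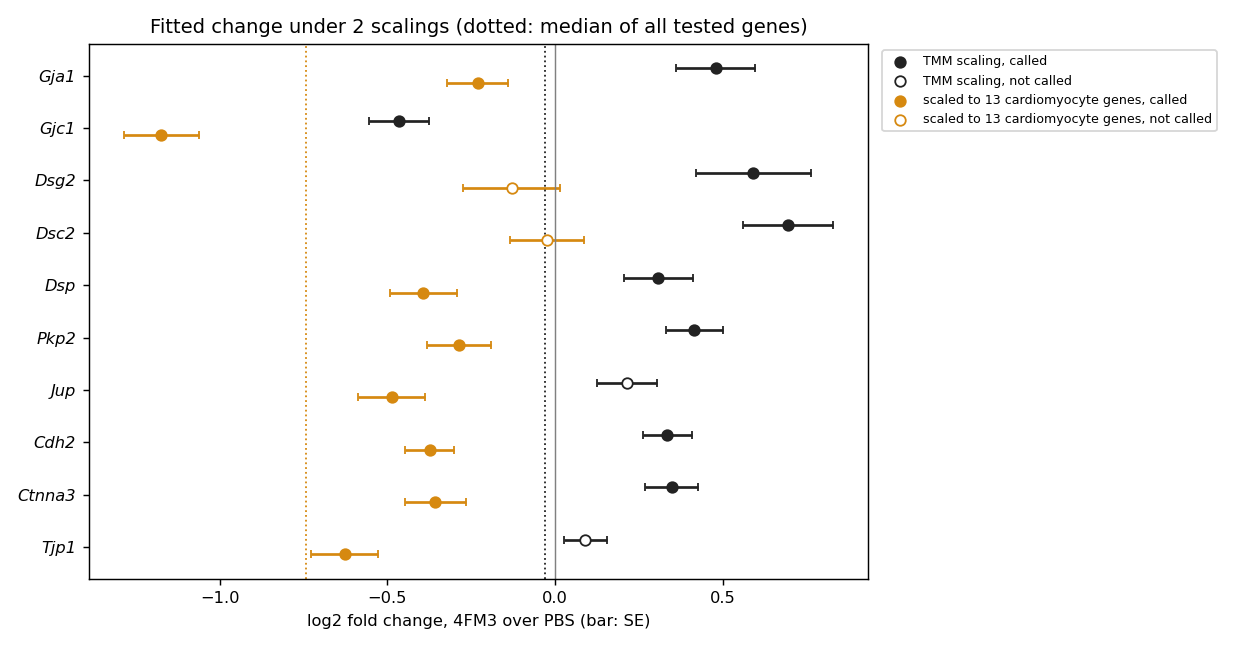
Fitted log2 fold change of 4FM3 over PBS for each junction gene, with its SE as a bar, under TMM scaling (black) and scaled to 13 cardiomyocyte genes (orange); filled points passed the test, open points did not, and dotted lines mark the median of all tested genes, -0.03 and -0.74. Gjc1 lies left of the dotted line and the other 9 lie right of it, in the same order under both scalings, which shift all genes nearly alike.

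Other proteins gather at the disc. A list of 15 genes of its channels and membrane anchors also holds Tmem43, a nuclear envelope gene. Of the 15, 11 rose, 2 fell and 2 did not pass, against 20.9% higher and 22.1% lower among all tested genes. The list median was a log2 fold change of 0.43. Relative to cardiomyocyte RNA, none of the 15 was called higher and 8 were called lower, with a median of -0.29, against 83.0% lower among all genes. Kcnj12, an inward rectifier potassium channel gene, averaged 36.3 ± 3.26 CPM in 4FM3 and 23.4 ± 3.94 CPM in PBS (SD, n = 5 each; 1.55-fold higher, adjusted p = 0.000987 by edgeR). Bves, a Popeye protein that binds cyclic AMP, averaged 67.6 ± 6.93 CPM in 4FM3 and 46.1 ± 7.47 CPM in PBS (1.47-fold higher, adjusted p = 0.00159 by edgeR). Tmem43, a nuclear envelope protein gene of inherited arrhythmogenic cardiomyopathy, averaged 41.9 ± 5.11 CPM in 4FM3 and 59.1 ± 3.05 CPM in PBS (1.41-fold lower, adjusted p = 0.000697 by edgeR). Of 18 linkers between disc, actin and Z-disc, 8 rose, 2 fell and 8 did not pass, with a median of 0.30, against the same 20.9% higher and 22.1% lower. Relative to cardiomyocyte RNA, 1 was called higher and 15 lower, with a median of -0.39, against 0.992% higher and 83.0% lower among all genes. Fhl2, a LIM protein of the heart, averaged 1007 ± 178 CPM in 4FM3 and 476 ± 81.5 CPM in PBS (2.12-fold higher, adjusted p = 0.000271 by edgeR). Myzap, a disc protein that binds ZO-1, averaged 169 ± 19.2 CPM in 4FM3 and 102 ± 16.3 CPM in PBS (1.66-fold higher, adjusted p = 0.000442 by edgeR). Xirp2, an actin-binding protein of the disc, averaged 918 ± 154 CPM in 4FM3 and 1489 ± 277 CPM in PBS (1.62-fold lower, adjusted p = 0.00202 by edgeR), without overlap.

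**Figure D5:**
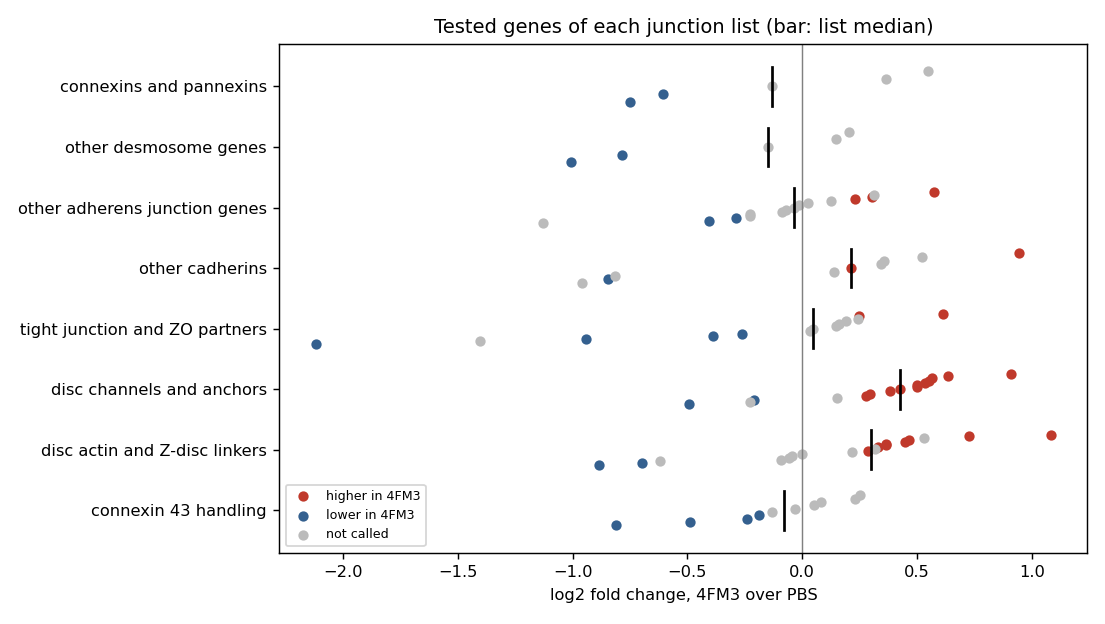
Log2 fold change of 4FM3 over PBS for every tested gene of the 8 junction and disc lists outside the 10 genes, with genes called higher in red, lower in blue, not called in grey and the list median as a bar. The list of channels and anchors has 11 of 15 genes in red and a median of 0.43, and the connexin and desmosome lists have none in red.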

How the data were processed

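Per the labels' protocols, ribosomal RNA was removed from total RNA before directional libraries were made, and the genome build was mm10, per the submitters' processing notes. The sources used here do not give the aligner, the counter, the annotation or the use of strand. The authors deposited 3 values per gene and library: read counts, a normalized signal equal to the count times 1 factor per library, and that signal as log2 of the value plus 1. Tests used the deposited counts alone, and 20 further columns served as a check. Of 49585 rows, 26 carry a calendar date in place of a symbol (0.131% to 0.161% of counts). They stayed in the tests unnamed.

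Counts were filtered with filterByExpr, scaled by TMM and tested with edgeR 4.0.16 (R 4.3.3; quasi-likelihood, robust, no covariate, two-sided), with Benjamini-Hochberg adjustment over 12906 genes at 0.05. SEs are the log2 fold change over the square root of F, and the interval of Tjp1 uses 8 residual degrees of freedom. A second fit set library sizes by 13 cardiomyocyte markers. The test was checked on simulated counts for both scalings. Log2 count ratios of 4 gene pairs were compared by exact permutation over all 252 assignments. Alternatives were DESeq2 1.42.0, voom in limma 3.58.1, other scalings, no filter, a replicate block and libraries left out. The 10 genes were a given list, and from each other list the text names up to 3 of the genes with the smallest p. Members and lists were chosen with earlier results of these data known. Total counts per library ranged from 6634159 to 7711177.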

Additional observations from a re-analysis of the deposited data

How the results depend on the processing

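Over 350 refits of the 10 junction genes (19 alternatives for 4FM3 against PBS and 16 relative to cardiomyocyte RNA), 311 kept direction and side of the threshold, 24 lost a call, 4 gained one (all Jup) and 11 turned sign. The turned values were all of genes that were not called: Tjp1 with library size alone (-0.086), and relative to cardiomyocyte RNA Dsg2 with 6 sarcomere genes (0.03) or summed counts (0.011) and Dsc2 with 6 sarcomere genes (0.133), summed counts (0.116), without PBS replicates 2 and 3 (0.023), without 4FM3 replicates 2 and 5 (0.057), without all 4 (0.105), and from -0.085 to 0.029 leaving out 1 library each. Lost calls were 10 each for Dsp and for Gja1 relative to cardiomyocyte RNA, 3 for Pkp2 on that scale and 1 for Dsg2; the cause was not tested.

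Over all genes, 3521 passed without PBS replicates 2 and 3 (1668 lower), and library size alone gave 1540 higher and 4967 lower. Leaving out 1 library each gave 4573 to 5831 genes. Relative to cardiomyocyte RNA, 328 genes were higher with 6 sarcomere genes and 264 with summed counts, against 128. Junction genes called higher in 4FM3 numbered 5 to 8, and lower 1, in the 19 alternatives for 4FM3 against PBS, and 0 higher and 6 to 8 lower in the 16 relative to cardiomyocyte RNA.

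The ratio of Gjc1 to Gja1 ranged from -1.008 to -0.886 leaving out 1 library each, all past the threshold. It did not pass without PBS replicates 2 and 3 (-1) or 4FM3 replicates 2 and 5 (-1.041; adjusted p = 0.0714 each), or without all 4 (-1.099), where fewer libraries limit the smallest exact p to 0.0179 and 0.1 before adjustment. The ratio of Jup to Dsp ranged from -0.124 to -0.074 leaving out 1 library each. Same-numbered libraries did not deviate together (correlations of -0.0433 to 0.071 across genes, and none of the 5 correlated best with its own number). With the replicate block 8 junction genes rose and 1 fell, and the connexin ratio of -0.942 had an adjusted p of 0.25 by sign flips over 5 pairs, whose smallest p is 0.0625. A count of 0 allows up to 3 counts, 0.371 to 0.481 CPM in these libraries, while the junction genes had at least 148 counts.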
